A study of Oryza sativa Japonica Group with 20 samples.

Results

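A set of 93 rice genes had less RNA both in seedlings labelled slr1 and in seedlings given gibberellin (GA) for 1 h. The slr1 seedlings are described as a knockout of SLR1, which encodes a DELLA protein, and no protein was measured. Members were chosen by their measured values, out of 21097 genes that are in both RNA tables with an overall mean of 20 or more normalised reads in each. A member's control mean had to be at least 1.5 times its mean in slr1, and likewise after GA. The highest slr1 library had to lie below the lowest wild-type library, and the highest GA library below the lowest control library. These conditions held for 96 genes, and the rule leaves out 3 of them, LOC_Os05g33730, LOC_Os03g63970 and LOC_Os02g41954. The values below therefore describe the members, and no p-value is given for any of them.

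Gibberellins are diterpenoid hormones that promote elongation growth. DELLA proteins are nuclear regulators that hold back GA responses. When a GA receptor binds the hormone it also binds the DELLA protein, which is then marked with ubiquitin and degraded. Loss of the DELLA protein and a supply of GA thus both relieve DELLA restraint, one throughout the life of the plant and the other within the time of treatment. In many plants GA also lowers the RNA of some genes of its own synthesis and perception, a feedback that keeps the hormone response in bounds.

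The slr1 experiment compared seedlings of the SLR1 knockout, all 12 days old, with wild type (labelled NIP) of that age. The GA experiment used wild-type seedlings, either untreated (control) or supplied with 100 uM GA at the roots for 1 h. The sources used here do not give their age, the kind of slr1 mutation or the number of lines behind it. All plants grew on Murashige and Skoog medium under cycles of light and dark. Each group had 3 libraries, and no label says whether these came from separate plants.

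The genes are known here by locus IDs alone. Of the members, 0 of 93 matched the RefSeq gene table, as did 0 of all genes in either RNA table. No gene name, function or sequence is therefore attached to an ID. For the same reason neither the targeted gene nor tissue markers were used to check the labels. Libraries of the slr1 experiment held 27778578 to 28010807 reads assigned to genes, and those of the GA experiment 17919838 to 20979965. A normalised read is 1 read divided by the library's size factor. It is not scaled by gene length, so levels are compared between libraries and not between genes.

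Replicates were much closer in the GA experiment. The squared difference of reads between 2 replicates averaged 1.88 to 3.04 times its counting variance there, against 18.7 to 89.4 times in the slr1 experiment. For the members the coefficient of variation over 3 libraries had a median of 23.2% in wild type and 24.7% in slr1, beside 11.5% and 15.1% for all 21097 genes. In control and GA libraries it was 9.57% and 13.5%, beside 6.08% and 6.06%. Levels differed as well: the median mean was 264 normalised reads for the members and 561 for all 21097 genes in wild type, and 105 and 290 in control. Counting error weighs more at low levels, and its part in these medians was not tested.

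Wild-type replicate 2 often held the lowest wild-type value of a member. It did so for 51 of 93 members (54.8%), against 30.3% of all 21097 genes, while replicate 3 was lowest for 9 (9.68%, against 32.6%). Replicate 2 was under 0.5 times both other wild-type libraries for 10 members (10.8%), against 1.62% of all 21097 genes. The same wild-type libraries served to choose the members, and the part of that choice in these shares was not tested. The shares were not taken over the 2796 genes lower in slr1, so a low replicate 2 was not shown to be particular to the members. LOC_Os10g39680 stood at 825, 149 and 836 in wild-type libraries 1 to 3, and LOC_Os08g39840 at 2845, 703 and 2254. The slr1 libraries held 85.8, 96.9 and 59.2 for the first gene and 679, 183 and 271 for the second, below replicate 2 as the rule requires. Without wild-type replicate 2 the rule gave 148 genes, 91 of the members and 57 others. Leaving out any library eases the overlap condition, and 0 to 26 genes entered when each other library was left out. The median slr1 ratio of the members was 2.67 with that library and 2.78 without it. Single members moved further, as LOC_Os10g39680 from 7.48 to 10.3 and LOC_Os03g26530 from 3.54 to 2.21.

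**Figure D1:**
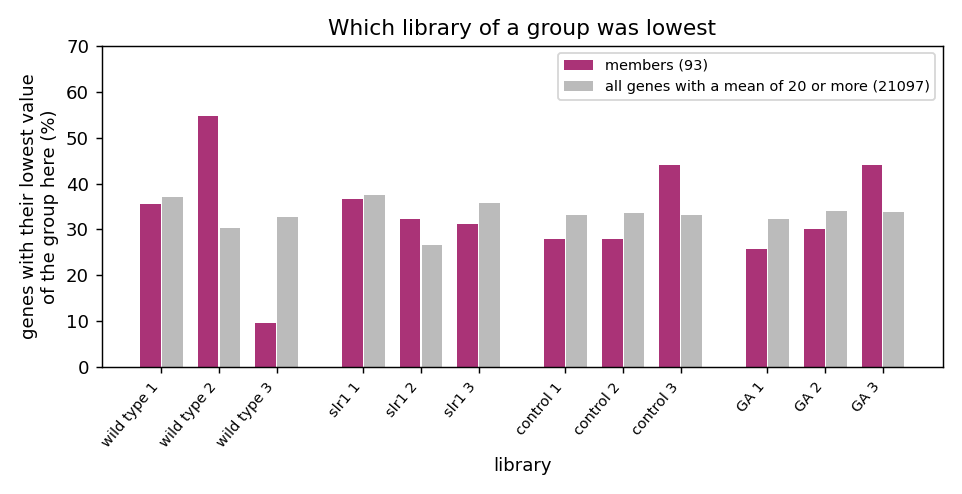
Bars give the percentage of genes whose lowest value within a group of 3 libraries lay in the library named on the x axis, for the 93 members and for all 21097 genes with a mean of 20 or more. Wild-type replicate 2 was lowest for 54.8% of the members and 30.3% of all genes. The same libraries served to choose the members.

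By a ratio of at least 1.5 with no overlap, fewer genes were lower after GA than in slr1, while limma, which had no fold minimum, called more genes lower after GA (3700) than in slr1 (3222). The ratio and overlap conditions held for 2796 of 21097 genes in slr1 (13.3%) and for 529 after GA (2.51%). The 96 genes that met both conditions were 0.455% of all. They made up 3.43% of the genes lower in slr1, beside the 2.51% of all genes that were lower after GA. They made up 18.1% of the genes lower after GA, beside the 13.3% of all genes that were lower in slr1. By the same measure 192 genes were higher in both, 117 were higher in slr1 and lower after GA, and 164 were lower in slr1 and higher after GA. Of the 529 genes lower after GA, more were higher in slr1 (117) than lower (96), and 316 met the condition in neither direction in slr1. Among genes in neither direction after GA, fewer were higher in slr1 (2318) than lower (2536). An excess over the all-gene share was thus not shown to be particular to genes lower in both. In bulk seedling RNA, fewer cells of a type and less RNA per cell cannot be told apart.

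In the fits over all genes, limma called 78 of 93 members lower in slr1 at an adjusted p under 0.05, where 12.8% of the 25132 genes tested were called lower. After GA it called 89 of 93, where 15.9% of 23283 genes were. Since the same libraries chose the members, these counts describe them and support nothing further. The slr1 count was 51 without wild-type replicate 1 and 41 without wild-type replicate 3. All genes called lower in slr1 fell as well, from 3222 to 2007 and 1419.

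The slr1 knockout went with larger differences than 1 h of GA for most members. Over all 21097 genes as well, more were lower by at least 1.5 with no overlap in slr1 (13.3%) than after GA (2.51%). A wider range in slr1 was thus not shown to be particular to the members, and the counts and gaps below were not taken over all genes. The slr1 ratio, wild-type mean over slr1 mean, had a median of 2.67 and ran from 1.52 to 28.8. The GA ratio, control mean over GA mean, had a median of 1.72 and ran from 1.51 to 6.52. Over all 21097 genes the medians were 0.974 and 1.00. The slr1 ratio was the larger for 77 members and the GA ratio for 16. At least 2-fold differences in both experiments were found for 17 members, in slr1 alone for 55, after GA alone for 5 and in neither for 16. Between the lowest control library and the highest treated library the median gap was 1.53-fold in slr1 and 1.39-fold after GA.

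**Figure D2:**
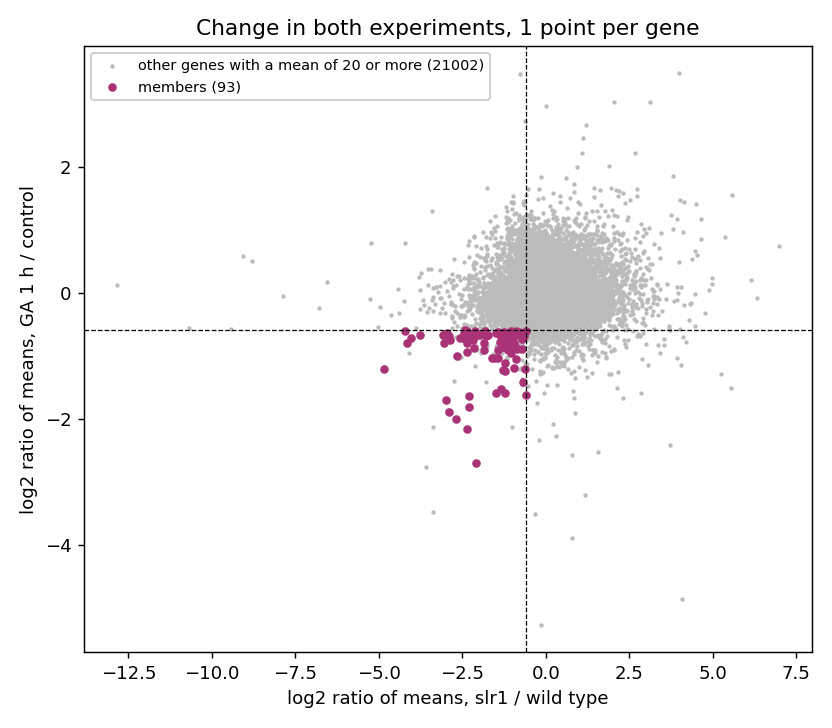
Each point is a gene, placed by the log2 ratio of slr1 to wild-type means (x axis) and of GA to control means (y axis), with the 1.5-fold limits as dashed lines. The 93 members lie in the lower left corner, spread further along the slr1 axis than along the GA axis, with medians of 2.67-fold and 1.72-fold. Grey points in that corner had groups that overlapped or were left out by the rule, and 2 genes at 0 in all slr1 libraries are not drawn.

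**Figure D3:**
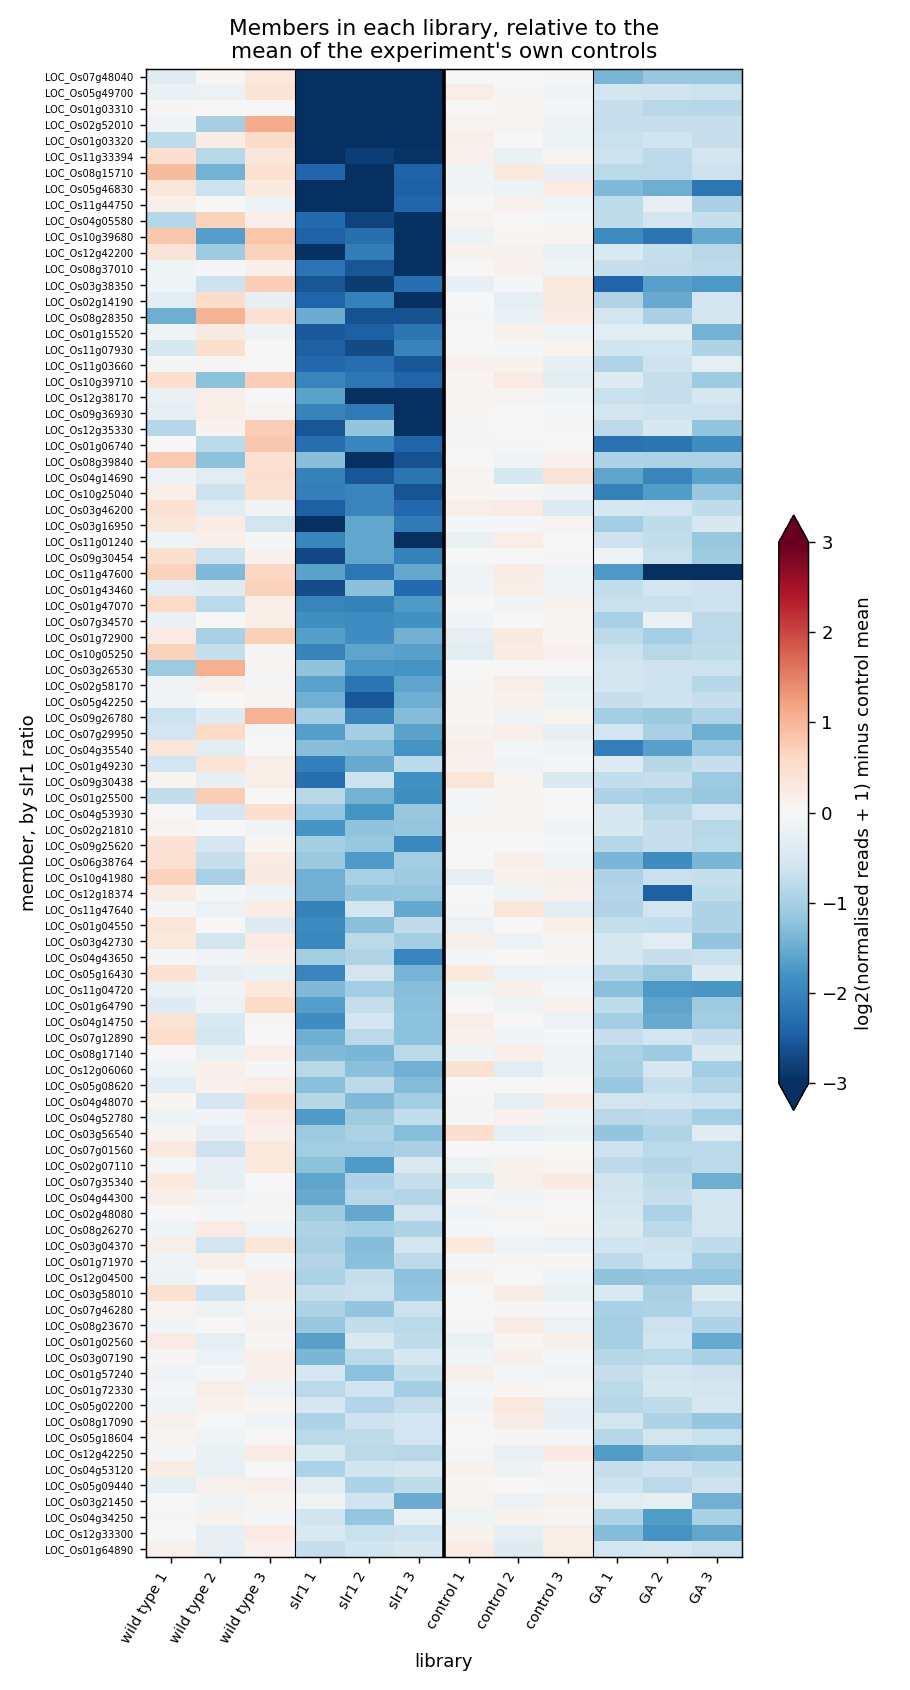
Colour gives log2(normalised reads + 1) in each of 12 libraries minus the mean of the same experiment's control libraries, for all 93 members in order of their slr1 ratio. Values beyond 3 on this scale share the end colour. The slr1 libraries range from deep to pale blue, while the GA libraries are mostly pale, as the median GA ratio of 1.72 describes.

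The members lowered most in both experiments were led by LOC_Os01g06740. It stood at 345, 202 and 615 normalised reads in wild type and at 70.7, 90.0 and 65.1 in slr1, a ratio of 5.15. In the GA experiment it stood at 76.4, 72.7 and 75.6 in control and at 15, 15.5 and 19.9 after GA, a ratio of 4.46. The wild-type libraries differed widely, with replicate 3 highest and replicate 2 lowest. Its lowest control library was 3.66 times its highest GA library, the widest gap of any member in that experiment.

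LOC_Os11g47600 had the largest GA ratio of the members, 6.52, from 48.5, 60.6 and 47.6 in control to 15, 4.86 and 4.19 after GA. In slr1 it stood at 12.1, 7.83 and 12.6, and in wild type at 62.9, 14.9 and 60. Wild-type replicate 2 thus came close to the slr1 libraries. Few reads lie behind these values, 23 in the 3 GA libraries together and 33 in the 3 slr1 libraries.

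LOC_Os03g38350 had ratios of 6.39 and 3.99. It went from 231, 166 and 427 in wild type to 42.4, 34.2 and 52.4 in slr1, and from 37.2, 42.9 and 54.1 in control to 7.50, 13.6 and 12.6 after GA. Wild-type replicate 3 stood above the other wild-type libraries, and GA replicate 1 was the lowest of the GA libraries. LOC_Os10g39680, whose wild-type libraries are given above, had ratios of 7.48 and 3.69, with 103, 118 and 121 in control and 30, 24.3 and 38.7 after GA.

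LOC_Os04g14690 stood at 658, 575 and 1040 in wild type and at 178, 123 and 159 in slr1. Its control libraries held 59.9, 40.1 and 73.7 and its GA libraries 18.2, 13.6 and 17.8, for ratios of 4.94 and 3.5. LOC_Os05g46830 went from 167, 84.1 and 160 to 13.1, 15.7 and 23.3 in slr1, and from 34.1, 32.6 and 42.9 to 13.9, 12.6 and 7.33 after GA. LOC_Os10g25040 went from 170, 96.9 and 206 to 35.3, 37.2 and 24.3, and from 44.4, 43.8 and 39.2 to 9.64, 12.6 and 18.8. Together with the first 4 genes these make the 7 members with a ratio of at least 3 in both experiments.

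The next 3 members by their smaller ratio had a GA ratio above their slr1 ratio. LOC_Os04g35540 had 2.80 in slr1 and 2.98 after GA, from 136 ± 31.6 to 48.7 ± 9.41 and from 110 ± 10.7 to 37.0 ± 12.4 (mean ± SD, n = 3). LOC_Os06g38764 had 2.54 and 2.88, from 674 ± 253 to 265 ± 61.6 and from 301 ± 29.9 to 104 ± 19.8. LOC_Os11g04720 had 2.34 and 3.0, from 353 ± 68.8 to 151 ± 17.0 and from 101 ± 9.68 to 33.7 ± 6.97. All 10 genes met the rule with any 1 library left out, a check that only a ratio or an overall mean can fail.

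**Figure D4:**
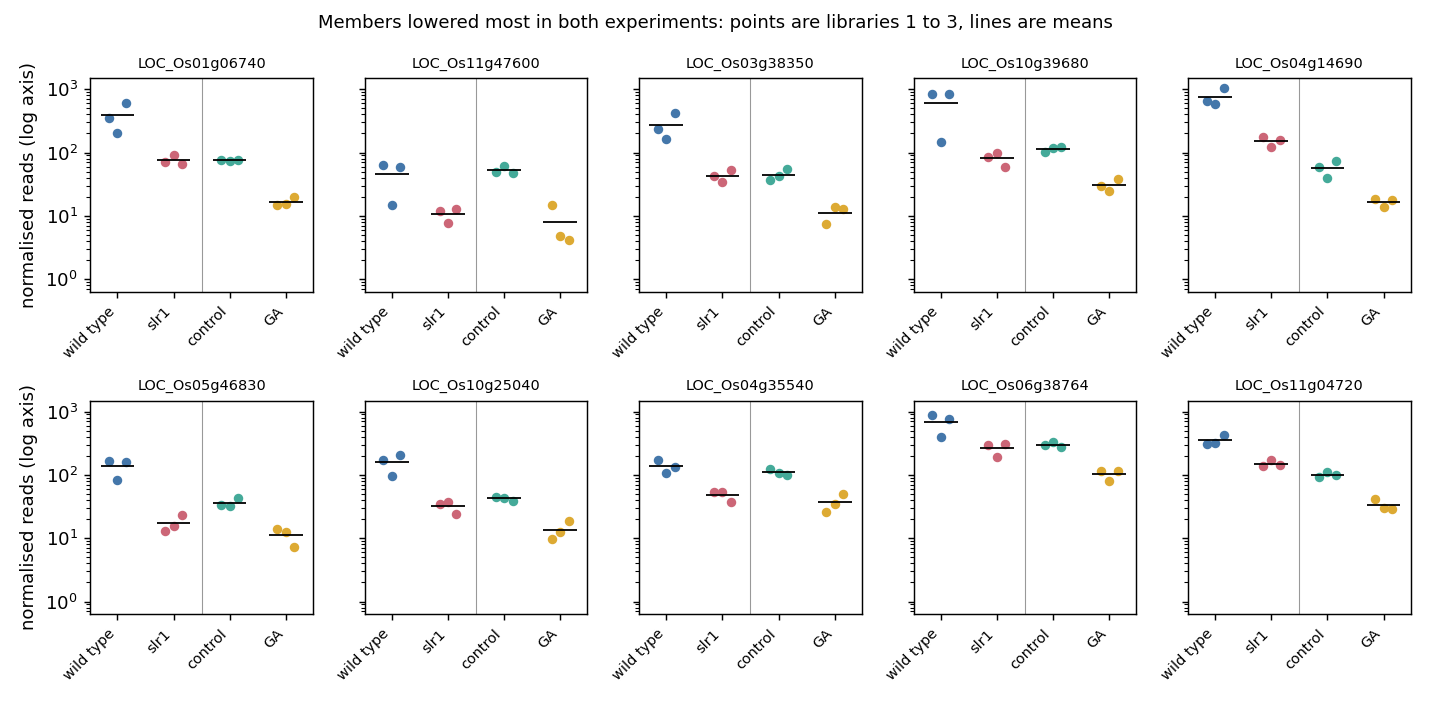
Points are the 3 libraries of each group and lines their means, in normalised reads on a log axis, for the 10 members with the largest smaller ratio. As the rule requires, slr1 lies below wild type and GA below control in each panel, with mean ratios from 5.15-fold and 4.46-fold for LOC_Os01g06740 to 2.34-fold and 3.0-fold for LOC_Os11g04720.

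For 34 members the slr1 ratio was at least 2 times the GA ratio, and 5 had slr1 ratios over 10. LOC_Os07g48040 had the largest, 28.8. It stood at 3518, 4750 and 5659 in wild type and at 52.5, 324 and 108 in slr1, while GA moved it from 284, 285 and 274 to 108, 128 and 127. The slr1 libraries differed 6-fold among themselves, and all lay at least 10.9-fold below the lowest wild-type library.

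LOC_Os05g49700 had an slr1 ratio of 18.7, from 132, 133 and 198 to 9.09, 10.8 and 4.86, with 25 reads in the 3 slr1 libraries together. Its GA ratio, 1.52, was close to the limit, from 220, 184 and 176 to 132, 127 and 122. LOC_Os01g03310 had 17.8 and 1.74. It was even in wild type at 2588, 2483 and 2494 and uneven in slr1 at 286, 76.3 and 64.1, and went from 488, 508 and 466 to 299, 271 and 270 after GA.

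LOC_Os02g52010 had 16.5 and 1.64, with wild-type libraries at 1694, 915 and 3966 and slr1 libraries at 54.5, 162 and 182. GA took it from 489, 484 and 413 to 278, 284 and 285. The next locus after LOC_Os01g03310 among the members, LOC_Os01g03320, was the fifth, with ratios of 13.6 and 1.59. It stood at 354, 696 and 871 in wild type and at 71.7, 11.7 and 58.3 in slr1.

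The GA ratio exceeded the slr1 ratio by 2-fold or more in 1 member. LOC_Os12g33300 had ratios of 1.53 and 3.08, from 69.7, 57.5 and 81.3 to 49.5, 43.1 and 43.7 in slr1 and from 38.2, 28.9 and 41.1 to 13.9, 9.72 and 11.5 after GA. LOC_Os12g42250 had 1.62 and 2.68, from 141, 124 and 175 in control to 45, 58.3 and 60.7 after GA. LOC_Os04g34250 had 1.55 and 2.31, from 38.2, 45.7 and 42.9 to 21.4, 12.6 and 20.9. For these 3 genes the slr1 ratio lay near the limit, and each dropped out of the rule when some 1 library was left out.

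Among the members with the most reads, LOC_Os09g36930 was among the highest in both experiments, at 9387, 12931 and 11863 in wild type and 2830, 2582 and 1209 in slr1. It stood at 3331, 3306 and 3141 in control and 2211, 2123 and 2111 after GA, so its ratios were 5.16 and 1.52. LOC_Os01g47070 had 4.03 and 1.58, with wild-type libraries at 4559, 1721 and 3482 and slr1 libraries at 762, 733 and 925. LOC_Os12g38170 had 5.29 and 1.56, at 3492, 4610 and 4066 in wild type and 1315, 501 and 485 in slr1, where replicate 1 stood apart.

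The control group held more than 1000 normalised reads of 3 further members. LOC_Os03g26530 went from 2303, 2269 and 2239 to 1542, 1472 and 1459 after GA, a ratio of 1.52 with little spread. LOC_Os05g09440 went from 1544, 1468 and 1443 to 963, 863 and 960, and LOC_Os04g43650 from 1058, 1080 and 1101 to 759, 663 and 678. Their slr1 ratios were 3.54, 1.59 and 2.36, and the first was 2.21 without wild-type replicate 2, since its wild-type libraries stood at 117, 524 and 256. In slr1 LOC_Os05g09440 stood at 459, 305 and 343 against 477, 632 and 646 in wild type, groups that are apart by a small margin.

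The untreated wild-type groups of both experiments held very different amounts of some members. Levels are given here as RPM, a gene's reads scaled to the total assigned to genes in its library, from tables normalized separately, so no test was made. LOC_Os07g34570 stood at 4392 RPM in wild type and 5.54 in control, 793-fold apart and the largest such difference among the members. Its libraries held 108104, 123731 and 141201 normalised reads in wild type, 34419, 33607 and 35050 in slr1, 102, 108 and 115 in control and 54.6, 92.3 and 62.8 after GA. The ratios were 3.62 and 1.55.

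The median of wild type over control was 1.5 for the members and 1.4 for all 21097 genes, so the medians lay close together. Wild type over control was above 2 for 42 of 93 members (45.2%, beside 22.7% of all 21097 genes). It was under 0.5 for 11 members (11.8%, beside 9.10%). The same wild-type and control libraries served to choose the members, and the part of that choice in these shares was not tested. LOC_Os10g41980 stood at 49.9 and 3.94 RPM in wild type and control, and LOC_Os10g05250 at 30.4 and 2.54. In the other direction LOC_Os03g26530 stood at 10.4 and 116, and LOC_Os04g05580 at 2.29 and 15.4. The age of the control seedlings is not given, and experiment cannot be told apart from age or growth conditions.

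**Figure D5:**
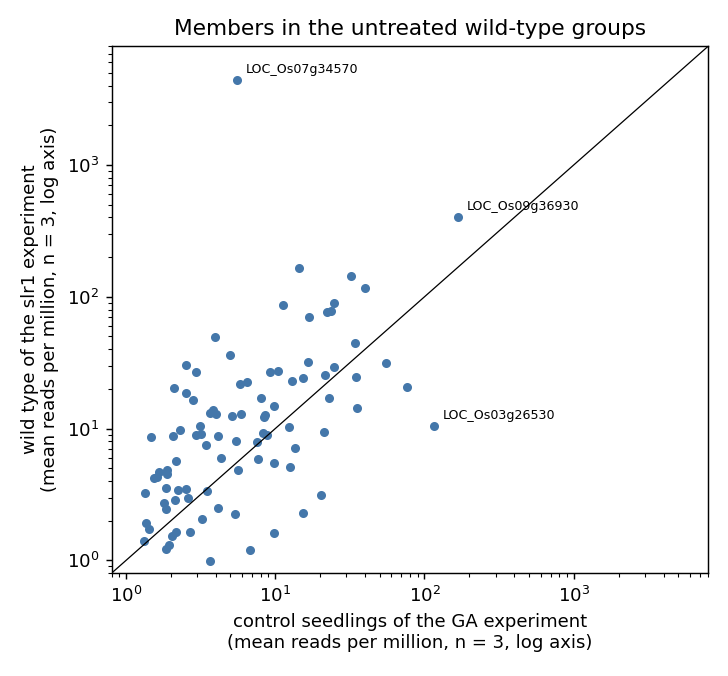
Each point is a member, placed by its mean RPM in control seedlings of the GA experiment (x axis, log) and in wild type of the slr1 experiment (y axis, log), n = 3 each. The line marks equal values. LOC_Os07g34570 lies farthest from it at 5.54 and 4392, and 42 members lie more than 2-fold above the line.

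By their locus IDs, which carry the chromosome number, the members lay on all 12 chromosomes. They made up 0.441% of the 21097 genes, from 0.0590% on chromosome 6 (1 member of 1696) to 0.683% on chromosome 12 (8 of 1171). In 8 pairs, neighbouring members had locus numbers within 100 of each other. Such pairs were not counted over all 21097 genes, so clustering of the members was not shown. LOC_Os10g39680 and LOC_Os10g39710 shared the low wild-type replicate 2: the second gene stood at 685, 205 and 809 there. Its ratios were 5.31 and 1.66, against 7.48 and 3.69 for the first. LOC_Os11g47600 and LOC_Os11g47640 differed, since the second was even in wild type at 115, 106 and 139, with ratios of 2.43 and 1.81. LOC_Os04g14690 and LOC_Os04g14750 had 4.94 and 3.5 against 2.33 and 2.35. The other pairs were LOC_Os01g03310 with LOC_Os01g03320, LOC_Os01g64790 with LOC_Os01g64890, LOC_Os08g17090 with LOC_Os08g17140, LOC_Os09g30438 with LOC_Os09g30454 and LOC_Os12g42200 with LOC_Os12g42250. Whether paired loci are similar copies that share reads was not tested.

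Many members lay near the limits. The 3 just inside were LOC_Os11g03660 with a GA ratio of 1.507, LOC_Os09g30454 with 1.514 and LOC_Os01g64890 with 1.517 in slr1 and 1.518 after GA. Just outside were LOC_Os04g06734 and LOC_Os01g62670, both with a GA ratio of 1.497, and LOC_Os01g63620 with 1.495. LOC_Os01g63620 stood at 1644, 1409 and 1690 in wild type, 543, 447 and 724 in slr1, 651, 567 and 582 in control and 421, 390 and 394 after GA. It met every other condition of the rule. In slr1 10 members, and after GA 7, had a gap of less than 1.1-fold between the nearest libraries, as LOC_Os10g41980 with 636 in wild-type replicate 2 and 631 in slr1 replicate 2.

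The rule was met by 57 of the 93 members whichever 1 of the 12 libraries was left out, among them 16 of the 17 with at least 2-fold differences in both experiments. Leaving out a library cannot make separate groups overlap, so a member could drop out only through a ratio or an overall mean. These counts therefore describe how far members lay from those limits. LOC_Os10g41980, with a gap of 1.01-fold in slr1, was among the 57. The same held for 34 of the 55 with 2-fold differences in slr1 alone, 1 of the 5 with these after GA alone and 6 of the 16 with neither. Leaving out a control or GA library removed 4 to 12 members, and leaving out a wild-type or slr1 library 1 to 3. Among all members, 34 had fewer than 100 reads over the 3 GA libraries together, and 23 over the 3 slr1 libraries.

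The loci left out by the rule met the same conditions as the members. LOC_Os05g33730 stood at 1961, 2372 and 2369 in wild type, 1197, 1202 and 1641 in slr1, 1902, 2038 and 1812 in control and 1198, 1186 and 1159 after GA. Its ratios were 1.66 and 1.62. LOC_Os03g63970 had 2.01 and 1.72, and LOC_Os02g41954 had 2.83 and 1.80. LOC_Os02g41954 differed widely in level between experiments, at 5.71 RPM in wild type and 48.6 in control.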

How the data were processed

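RNA was measured in 12 libraries, 3 per group, and groups came from the labels. Per the submitters' processing notes the authors used HISAT2, featureCounts 2.0.0, DESeq and DESeq2 1.38.3. The sources used here do not name the genome build, annotation release or strand setting. The deposited values are a signal, normalised reads: a gene's reads scaled by the size factor of its library. Both tables were normalized separately, so every test ran within a table. Dividing by the smallest value above 0 of a library gave whole reads for 100% of its values (tolerance 0.01), and these recovered reads served the count tests.

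Members and lists were chosen with earlier results of these data known. Genes reaching 10 normalised reads in 3 or more of 6 libraries were fitted with limma 3.58.1 (R 4.3.3, trend) on log2(value + 1), with Benjamini-Hochberg adjustment over all genes tested. A gene was called lower at an adjusted p under 0.05, with no fold minimum. The code of the fits was tested on simulated reads with the same replicate spread in both experiments, unlike the data. The choice of members and its repeats without a library were not tested in this way. Alternatives were other pseudocounts, no filter, a replicate block, edgeR 4.0.16 and DESeq2 1.42.0 on recovered reads, and each library left out in turn.

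Of more than 30 members, the text names the 10 with the largest smaller ratio, the 5 with the most reads in wild type and in control, the 4 at each end of the difference between both ratios, those next to the threshold and neighbouring loci. Members named for their wild-type libraries, their gap or their level between experiments were chosen after their values were seen. No locus ID was paired with a gene name (0 matched the RefSeq gene table), so fixed lists of GA pathway and tissue marker genes were not used. H3K27me3 peak lists were not used here, since no locus could be placed on them.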

Additional observations from a re-analysis of the deposited data

How the results depend on the processing

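The number of members, 93, was 116 with a mean minimum of 10, 53 with a mean minimum of 50, and 17 with a ratio minimum of 2. It was 89 with TMM scaling, all of them among the 93, and ranged from 90 to 148 with 1 library left out. Genes called lower in slr1 (3222) ranged from 1419 to 2821 with 1 library left out, and members among them (78) from 41 to 67. Genes called lower after GA (3700) ranged from 3048 to 3379, and members among them (89) from 73 to 85. Other pseudocounts, no filter, edgeR and DESeq2 moved no count by over 1.5 times. With the replicate number as a block, limma called 2567 genes and 65 members lower in slr1, and 3609 genes and 87 members after GA. The correlations of same-numbered deviations across genes were 0.0936, 0.192 and -0.162 in the slr1 experiment and -0.0141, -0.0327 and -0.021 in the GA experiment. The labels give no pairing, and these correlations cannot show whether same-numbered samples shared a batch. Low counts limit members such as LOC_Os08g37010, with 19 reads over the slr1 libraries.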

Other observations

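Across the 93 members, which are not independent replicates, the slr1 and GA ratios had a Spearman rho of -0.01, over a range that the rule cuts at 1.5 in both. Mean RPM in wild type and in control had a rho of 0.62. The GA ratio and the control mean had a rho of -0.30, and the slr1 ratio and the wild-type mean 0.11; each of these pairs shares its control libraries. The 10 members with wild-type replicate 2 under 0.5 times both other wild-type libraries had median ratios of 5.22 in slr1 and 1.73 after GA. Leaving out a library cannot create overlap, and 9 of the 10 met the rule whichever library was left out. The 10 were LOC_Os01g47070, LOC_Os01g72900, LOC_Os08g15710, LOC_Os08g39840, LOC_Os10g39680, LOC_Os10g39710, LOC_Os10g41980, LOC_Os11g33394, LOC_Os11g47600 and LOC_Os12g42200. Wild-type replicate 1 was low in the same way for LOC_Os03g26530, LOC_Os04g05580 and LOC_Os08g28350, at 117 beside 524 and 256 normalised reads in the first.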
